A study of Homo sapiens with 18 samples.

Results

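The 10 genes described here are markers of the ovarian and Mullerian lineage: PAX8, WT1, SOX17, MUC16, MSLN, WFDC2, FOLR1, EMX2, PAX2 and MECOM. They were taken by name from the 28277 genes of the deposited count table, and each of the 10 had a row. RNA was sequenced from cells labelled OVCAR3, a line established from a patient with ovarian adenocarcinoma, in 18 libraries that form 6 groups of 3. All cells stably carried dCas9-KRAB, a catalytically dead Cas9 fused to a transcriptional repressor (OVCAR3-KRAB), and each library came from a line with 1 of 3 guides: the control guide sgCtl (labelled sgControl), or sgXIST7 or sgXIST9, which are directed at the promoter of XIST, the long noncoding RNA of X chromosome inactivation. Each line was kept in normoxia or placed in hypoxia at 1% oxygen for 24 h. The sequenced cells were clonal, and the number of clones behind the libraries of a guide is not given in the sources used here, so in every comparison between guides the guide and the clones chosen cannot be told apart. The cells with 1 guide are called a line, and those with sgXIST7 or sgXIST9 the knockdown (KD) lines. The study described the 3 samples of a group as biological replicates, and p-values measure only the spread between these samples.

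These genes describe where a Mullerian cell comes from and what it puts on its surface. The Mullerian duct, which forms the oviduct, uterus and upper vagina, arises from intermediate mesoderm under transcription factors that include PAX2, PAX8, EMX2 and WT1. PAX8 and WT1 stay on in most high-grade serous carcinomas and are used in pathology to place a tumour in this lineage, SOX17 is a partner of PAX8 in those tumours, and MECOM is a zinc finger gene that is often amplified in them. MUC16 encodes the antigen CA125, WFDC2 the serum marker HE4, MSLN the surface protein mesothelin, which binds CA125, and FOLR1 the folate receptor alpha.

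In hg38 the listed exons of PAX8 spanned chr2:113215997-113278921 on the minus strand and summed to 4055 bases. Of these, 66 (1.6%) lay under an exon of PAX8-AS1, a noncoding gene on the opposite strand whose listed exons begin inside PAX8. WT1 lay at chr11:32387776-32435539 on the minus strand and shared 22 bases (0.6%) with WT1-AS. EMX2 lay at chr10:117542445-117549546 on the plus strand and shared 145 bases (5.0%) with EMX2OS, the largest such share among the 10 genes. The other genes were PAX2 (chr10:100735396-100829944, plus strand), MECOM (chr3:169083499-169663712, minus strand), MUC16 (chr19:8848844-8981342, minus strand), MSLN (chr16:760734-768865, plus strand), WFDC2 (chr20:45469753-45481532, plus strand), and FOLR1 (chr11:72189709-72196323, plus strand), with SOX17 given beside its counts. Between 96.1% (FOLR1) and 100% of the 50-base windows of these exons occurred once in the genome. How reads with several matches bear on the low counts was not tested.

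Promoter sequence is shown for 4 of the genes because hypoxia was one of the variables and because these 4 differ in the hypoxia response core, the letters ACGTG or GCGTG, which hypoxia-inducible factors recognise. Each run is the 250 bases before a RefSeq start in GRCh38.p14, read 5′ to 3′ on the strand of the gene, and capitals mark the core on either strand (CACGT or CACGC when it lies on the other one). PAX8 (chr2:113278922-113279171, minus strand) had no match. For WT1 the window farthest upstream of 4 is shown (chr11:32435540-32435789, minus strand), in which an exon of WT1-AS also lies. It had 1 match, 211 bases before the start. Of the other WT1 windows, chr11:32430814-32431063 had 1 match at 157 bases and chr11:32400401-32400650 had 1 at 25 bases. The window chr11:32434041-32434290 had none. PAX2 (chr10:100735146-100735395, plus strand) had 2 matches, at 184 and 79 bases, and its other window (chr10:100745332-100745581) had none. WFDC2 (chr20:45469503-45469752, plus strand) had 2, at 235 and 51 bases.
PAX8: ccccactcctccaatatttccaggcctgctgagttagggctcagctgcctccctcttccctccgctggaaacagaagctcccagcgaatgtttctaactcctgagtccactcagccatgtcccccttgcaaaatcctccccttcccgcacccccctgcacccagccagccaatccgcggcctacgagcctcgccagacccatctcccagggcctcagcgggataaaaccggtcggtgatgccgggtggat
WT1: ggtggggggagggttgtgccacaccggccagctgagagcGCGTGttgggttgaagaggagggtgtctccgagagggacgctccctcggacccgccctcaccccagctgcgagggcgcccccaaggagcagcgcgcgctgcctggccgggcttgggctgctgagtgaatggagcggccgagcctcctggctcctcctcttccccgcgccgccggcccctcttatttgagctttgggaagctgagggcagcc
PAX2: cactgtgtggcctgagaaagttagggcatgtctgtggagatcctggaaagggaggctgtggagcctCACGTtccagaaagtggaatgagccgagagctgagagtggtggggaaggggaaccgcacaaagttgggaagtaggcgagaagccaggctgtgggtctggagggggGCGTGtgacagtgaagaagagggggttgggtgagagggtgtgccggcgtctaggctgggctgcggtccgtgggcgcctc
WFDC2: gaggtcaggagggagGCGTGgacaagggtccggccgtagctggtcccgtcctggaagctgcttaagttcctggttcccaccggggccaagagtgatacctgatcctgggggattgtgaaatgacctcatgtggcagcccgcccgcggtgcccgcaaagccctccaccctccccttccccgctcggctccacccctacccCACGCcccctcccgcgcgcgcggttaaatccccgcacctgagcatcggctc
Of 35116 such windows over all genes, 15172 (43.2%) held a match, so its presence or absence in these 4 is a description. There were windows for 7 of the 10 genes and no entry for MSLN, FOLR1 and SOX17. EMX2, MUC16 and MECOM, not shown, had no match in any of their windows.

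Total counts ran from 11794375 to 24906936 a library. Levels are given as counts and as counts per 1000000 of the TMM-scaled library (CPM), and a value of 3 counts in a library, 0.130 to 0.266 CPM depending on depth, is used as the floor of detection. The XIST counts followed the labels, with 1589 to 11209 in sgCtl, 0 to 5 in sgXIST7 and 357 to 1009 in sgXIST9. The third hypoxia library of each line had 14540 to 15067 genes over the floor. The other hypoxia libraries had 15324 to 16009, and the normoxia libraries 14525 to 15245. Results that turn on the third hypoxia libraries are given with and without them. The most genes with a count, 19534, were in sgCtl hypoxia replicate 2, and the next library, sgXIST9 hypoxia replicate 2, had 18633. The highest counts of EMX2 (22) and WT1 (14) were also in sgCtl hypoxia replicate 2.

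Most of the lineage markers were barely detected in these libraries, in any line and at either oxygen level. Of the 10 genes, 4 (SOX17, WFDC2, FOLR1 and MECOM) never exceeded 3 counts in any of the 18 libraries, which was also the case for 36.6% of all listed genes. Under 1 CPM in every library were 8 of the 10, all but PAX8 and EMX2, and PAX8 alone had a count in every library. A filter on low counts left 14938 genes, 52.8% of those listed, and among the 10 only PAX8, MSLN and PAX2 passed it. MSLN and PAX2 passed through the groups in which they were highest. In bulk RNA, fewer cells of a type and less RNA per cell cannot be told apart, so a low count here does not say in how many cells a gene was on.

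**Figure D1:**
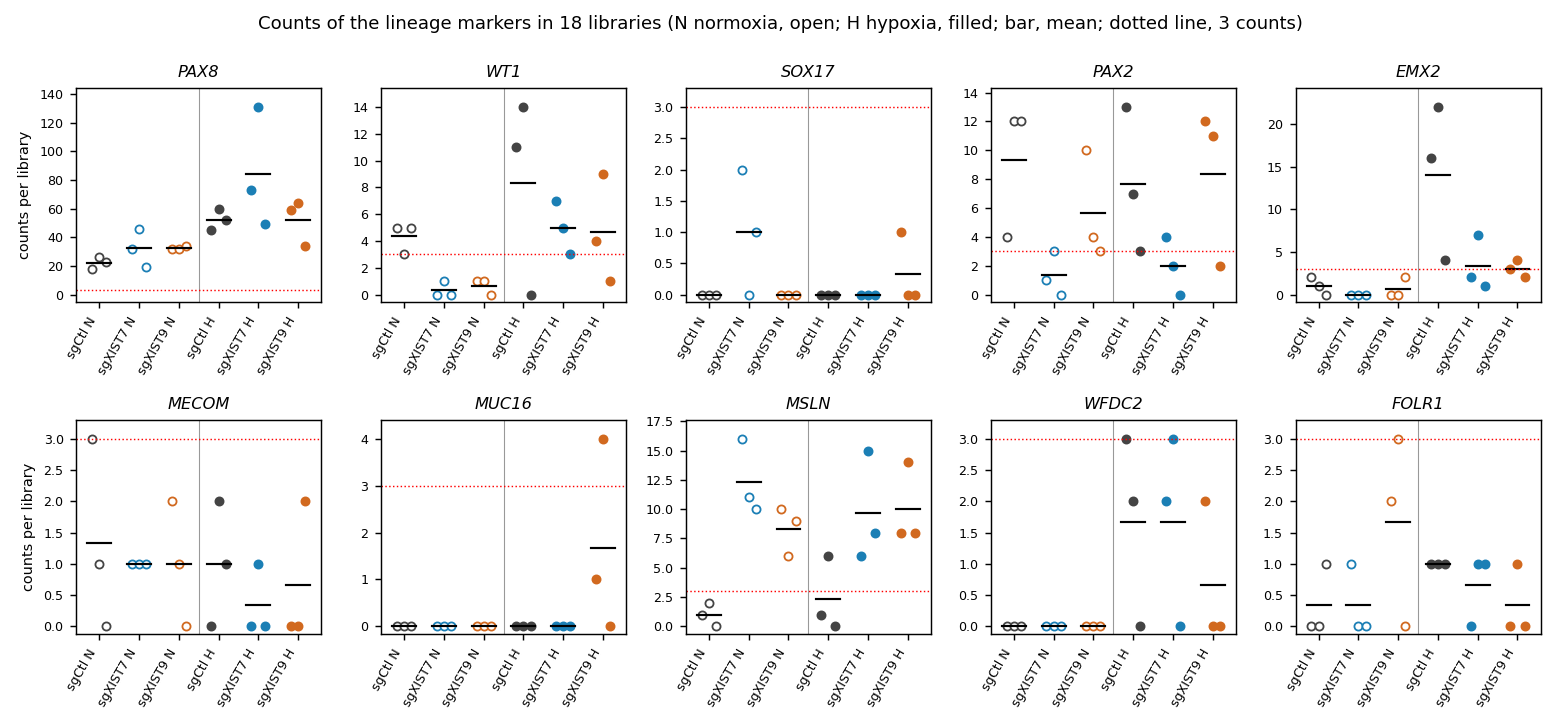
Raw counts of the 10 lineage markers (y axis, counts per library, a separate scale for each gene) in the 6 groups, with open points for normoxia, filled points for hypoxia, bars for the mean of 3 libraries and a dotted line at 3 counts. PAX8 lies above the line in all 18 libraries, whereas SOX17, WFDC2, FOLR1 and MECOM never rise over it.

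MUC16 had 5 counts in the 18 libraries together, 4 of them in 1 library (sgXIST9 hypoxia replicate 2) and 1 in another of that group. Its listed exons sum to 43816 bases, the longest of the 10 genes, and per kilobase it was the lowest of them. SOX17, whose listed exons lie at chr8:54457935-54460892 on the plus strand, had 4 counts in all, 2 and 1 in a pair of sgXIST7 normoxia libraries and 1 in an sgXIST9 hypoxia library. Neither gene had a count in any sgCtl library. With 3 counts as the limit that a count of 0 allows, these libraries put both genes at no more than 0.266 CPM in sgCtl, a limit that covers counting error only.

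WFDC2 had 12 counts, all of them in hypoxia: 3, 2 and 0 in sgCtl, 2, 3 and 0 in sgXIST7 and 2, 0 and 0 in sgXIST9. No normoxia library had one. FOLR1 had 13 counts in 10 libraries, at most 3 in sgXIST9 normoxia replicate 2, and MECOM had 16 counts in 11 libraries, at most 3 in sgCtl normoxia replicate 1. All values of WFDC2, FOLR1 and MECOM lay at or under the floor, so no fold change is given for them.

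Ranked per kilobase of exon, the 10 genes lay in the lower and middle part of the table. PAX8 was the highest, with 53.4% of all listed genes below it in mean CPM per kilobase over the 18 libraries, and it was followed by MSLN (46.4%), EMX2 (42.3%), PAX2 (41.7%), WFDC2 (41.4%) and WT1 (41.3%). FOLR1 (39.1%), MECOM (31.3%), SOX17 (27.8%) and MUC16 (18.8%) were lower. The ranks of EMX2, PAX2, WFDC2 and WT1 lie close together and set no order among these 4, since each had libraries with 0 counts.

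**Figure D2:**
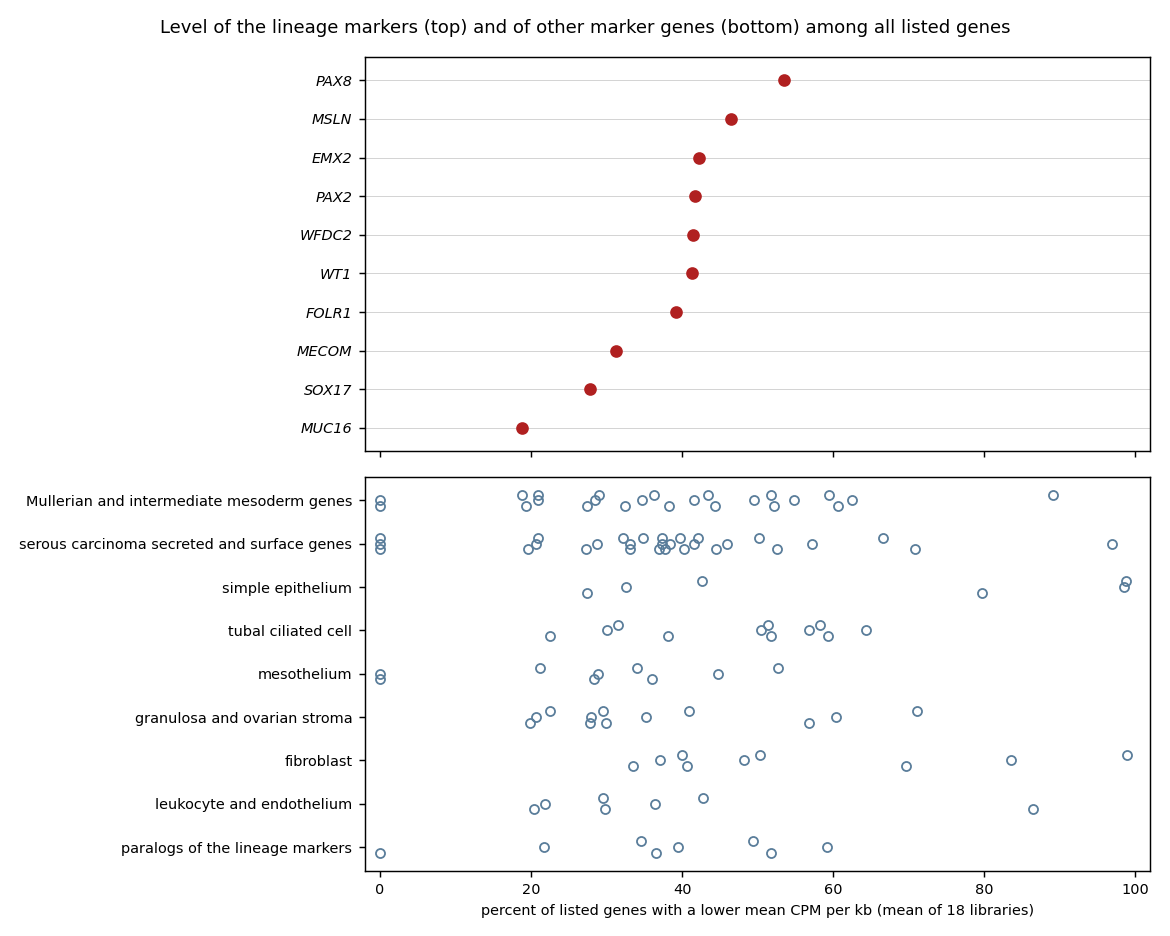
Percent of the listed genes with a lower mean CPM per kilobase (x axis) for the 10 lineage markers by name (top) and for each gene of 9 other marker lists (bottom, 1 open point a gene). The lineage markers sit between 18.8% and 53.4%, whereas the simple epithelium, fibroblast and serous carcinoma lists reach past 95%.

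The label of the line was then set against other markers. Of 29 further secreted and surface genes of serous carcinoma, 22 stayed under 1 CPM in every library, 13 never exceeded 3 counts, and BCAM and S100A1 were the 2 with a mean over 10 CPM across the 18 libraries. MUC1 and CRABP2 passed 10 CPM in at least 1 library, with highest values of 24.1 and 17.8 CPM. Among the 6 markers of simple epithelium, EPCAM was high, with group means of 160 to 243 CPM, and KRT18 had group means of 140 to 219 CPM. KRT7 and CDH1 did not exceed 3 counts in any library, and KRT19 had at most 8. Of the 9 fibroblast genes, COL3A1, COL1A2 and THY1 had a mean over 10 CPM, and 8 of 9 mesothelial, 9 of 12 granulosa and ovarian stroma and 6 of 7 leukocyte and endothelial genes stayed under 1 CPM in every library. Of 11 genes of tubal ciliated cells, 5 stayed under 1 CPM, and RFX2 and RFX3, transcription factors of cilia, had a mean over 10 CPM. FOXL2 was the gene with a mean over 10 CPM among the granulosa and stroma genes and CD68 among the leukocyte and endothelial genes. The libraries thus held abundant EPCAM and KRT18 RNA, with most serous surface and secreted markers, KRT7 and CDH1 at or near the floor. Defining markers of the labelled lineage were therefore absent or near 0, and the identity of the line was not tested, so the low counts describe these libraries and not OVCAR3 in general.

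PAX8 was the one lineage factor measured well above the floor. In normoxia its counts were 18, 26 and 23 in sgCtl, 32, 46 and 19 in sgXIST7, and 32, 32 and 34 in sgXIST9, or 1.51 ± 0.435, 1.59 ± 0.882 and 1.70 ± 0.279 CPM (SD, n = 3). In hypoxia they were 45, 60 and 52, 73, 131 and 49, and 59, 64 and 34 in the same order, or 3.47 ± 0.992, 4.55 ± 1.26 and 2.58 ± 0.391 CPM. In CPM every hypoxia library lay above every normoxia library of its own line, and the normoxia libraries of the 3 lines overlapped.

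WT1 was near the floor. Its normoxia counts were 5, 3 and 5 in sgCtl against 0, 1 and 0 in sgXIST7 and 1, 1 and 0 in sgXIST9. Its hypoxia counts were 11, 14 and 0 in sgCtl, 7, 5 and 3 in sgXIST7, and 4, 9 and 1 in sgXIST9. In normoxia every sgCtl library lay above every library of both KD lines, and in hypoxia sgCtl replicate 3, with 0 counts, lay below all of theirs.

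EMX2, a homeobox gene needed for the urogenital tract, had counts almost only in hypoxia. In sgCtl it had 2, 1 and 0 counts in normoxia and 16, 22 and 4 in hypoxia. sgXIST7 had 0 in all 3 normoxia libraries and 2, 7 and 1 in hypoxia, and sgXIST9 had 0, 0 and 2 and then 3, 4 and 2. The hypoxia libraries of sgCtl were the highest 3 of the 18 in CPM.

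PAX2, a paralog of PAX8 needed for the duct to form, had counts in 16 of 18 libraries. In normoxia it had 4, 12 and 12 counts in sgCtl, 1, 3 and 0 in sgXIST7 and 10, 4 and 3 in sgXIST9. In hypoxia it had 13, 7 and 3 in sgCtl, 4, 2 and 0 in sgXIST7 and 12, 11 and 2 in sgXIST9. In CPM the sgXIST7 libraries were below every sgCtl library in both conditions, as was so for 16.1% of the genes with a count in normoxia and 14.6% in hypoxia. In counts the hypoxia libraries overlapped, with 4 in sgXIST7 replicate 1 and 3 in sgCtl replicate 3. Those of sgXIST9 overlapped with sgCtl in both conditions.

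MSLN showed the opposite order between lines. Its counts were 1, 2 and 0 in sgCtl normoxia and 1, 6 and 0 in sgCtl hypoxia. In sgXIST7 they were 16, 11 and 10 in normoxia and 6, 15 and 8 in hypoxia, and in sgXIST9 10, 6 and 9 and then 8, 14 and 8. No library of either KD line had fewer than 6, and in normoxia every library of both lines lay above every sgCtl library, as was so for 16.1% of the genes with a count in sgXIST7 and 18.3% in sgXIST9.

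The first question was what differed between the XIST KD lines and sgCtl. A gene was called when edgeR's quasi-likelihood test, fitted over all 18 libraries and 14938 genes, gave a Benjamini-Hochberg adjusted p under 0.01 and an absolute log2 fold change over 1. Among the lineage markers MSLN was the only call, higher in sgXIST7 in normoxia, where 7.76% of all tested genes were called. Its log2 fold change was 2.99 (SE 0.76, adjusted p = 0.0087), from a mean of 0.0739 CPM in sgCtl to 0.579 CPM. The summed counts were 37 against 3, a ratio of 8.71 with an exact 95% interval of 2.76 to 44.2 for counting error. Mesothelin is also a marker of mesothelium, and 9 other mesothelial genes, of which UPK3B had the highest mean (2.49 CPM over the 18 libraries), summed to 3.15 to 4.99 CPM in sgCtl, 3.62 to 4.63 in sgXIST7 and 1.97 to 2.37 in sgXIST9 in normoxia, with LRRN4, UPK1B, ITLN1, PDPN and BNC1 at or under 3 counts in every library. Their part in the result was not tested. The call did not hold when any single one of the 6 libraries was left out (log2 fold change 2.35 to 3.95, adjusted p 0.01 to 0.057), nor with DESeq2 (3.11, adjusted p = 0.012).

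In the other 3 comparisons of a KD line with sgCtl, MSLN had positive log2 fold changes but was not called. The log2 fold change was 2.56 (SE 0.80, adjusted p = 0.029) in sgXIST9 in normoxia, 1.87 (SE 0.67, adjusted p = 0.033) in sgXIST7 in hypoxia and 1.77 (SE 0.67, adjusted p = 0.055) in sgXIST9 in hypoxia. The count ratios were 6.46 (1.97 to 33.4), 3.60 (1.54 to 9.74) and 3.40 (1.46 to 9.17). The 4 comparisons share their sgCtl libraries within each condition. Without sgCtl hypoxia replicate 2, the library with 6 counts, MSLN was called in sgXIST7 in hypoxia (3.66, adjusted p = 0.0069). It was not called there without any other single library (log2 fold change down to 1.47, adjusted p up to 0.12). Without the third hypoxia library of each line, the log2 fold change in hypoxia was 1.32 (adjusted p = 0.13) in sgXIST7 and 1.36 (adjusted p = 0.14) in sgXIST9.

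PAX2 had a log2 fold change of -3.17 (SE 0.85, adjusted p = 0.012) in sgXIST7 in normoxia, and by the threshold it was not called. The 4 summed counts against 28 gave a ratio of 0.101 (0.0257 to 0.288). PAX2 was called in the same direction with DESeq2 (-3.27, adjusted p = 0.0099), without the filter on low counts (adjusted p = 0.0089), without sgCtl normoxia replicate 1 (adjusted p = 0.0093) and without sgXIST7 normoxia replicate 2 (adjusted p = 0.0091). PAX2 was not called in the other 4 of the 6 fits that each left out 1 library. Over the 6 fits its log2 fold change ran from -4.46 to -2.58, with adjusted p up to 0.058. In hypoxia it was -2.10 (SE 0.83, adjusted p = 0.05) in sgXIST7. In sgXIST9 the values were -1.10 (adjusted p = 0.29) in normoxia and -0.25 (adjusted p = 0.81) in hypoxia. Between the lines, sgXIST7 against sgXIST9, no lineage marker was called in normoxia, where 3.4% of all genes were, or in hypoxia, where 4.46% were. At an unadjusted p under 0.05 there was 1 of the 3 tested (PAX2) in normoxia and 2 (PAX8 and PAX2) in hypoxia, and DESeq2 called 0 in both.

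PAX8 was not called in any KD comparison. Its log2 fold change was 0.06 (adjusted p = 0.93) in sgXIST7 and 0.18 (adjusted p = 0.79) in sgXIST9 in normoxia, and 0.41 (adjusted p = 0.34) and -0.41 (adjusted p = 0.40) in hypoxia. Across the 3 tested lineage markers, 0 were called in sgXIST9 in normoxia (7.7% of all genes), 0 in sgXIST7 in hypoxia (14%) and 0 in sgXIST9 in hypoxia (9.53%), and DESeq2 called 0 in each. At an unadjusted p under 0.05 there were 1, 2 and 1 (MSLN in each, with PAX2 in sgXIST7).

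WT1 did not pass the low-count filter and was compared by its counts. In normoxia the sum was 1 in sgXIST7 against 13 in sgCtl, a ratio of 0.0543 (0.00128 to 0.362), and 2 against 13 in sgXIST9, a ratio of 0.119 (0.0131 to 0.527). The exact permutation test of 3 against 3 libraries gave p = 0.1 for both, the smallest value that design allows. In the fit without a filter, over 22990 genes, the log2 fold changes were -3.70 (adjusted p = 0.028) and -2.84 (adjusted p = 0.076), neither called, where 5.05% of genes were called in each. Every library of both KD lines lay below sgCtl for WT1, and 16.1% of the genes with a count did so in sgXIST7 and 19.4% in sgXIST9.

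In hypoxia every EMX2 library of both KD lines lay below every sgCtl library in CPM. In counts they overlapped, since sgCtl replicate 3 had 4, sgXIST7 replicate 2 had 7 and sgXIST9 replicate 2 had 4. The summed counts were 10 against 42 in sgXIST7, a ratio of 0.207 (0.0926 to 0.419), and 9 against 42 in sgXIST9, a ratio of 0.170 (0.0727 to 0.354). Without a filter the log2 fold changes were -2.18 (adjusted p = 0.021) and -2.42 (adjusted p = 0.016), where 8.95% and 6.28% of genes were called. Without sgCtl hypoxia replicate 3, the library with 4 counts, both were called (adjusted p = 0.0026 and 0.0014). Of the 10 markers, 2 (EMX2 and PAX2) in sgXIST7 and 2 (EMX2 and FOLR1) in sgXIST9 had every hypoxia library below sgCtl in CPM. Of all genes with a count, 14.6% and 11.7% did so.

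The second question was what 24 h of hypoxia changed in each line. In sgXIST7 it raised PAX8 by 1.54 on the log2 scale (SE 0.35, adjusted p = 0.0011), the only lineage marker called there, where 27.3% of all tested genes were. The call held without any single library (1.22 to 2.03). In sgCtl PAX8 had a log2 fold change of 1.19 (SE 0.36, adjusted p = 0.011) and was not called by edgeR, but it was by DESeq2 (1.22, adjusted p = 0.0043), and 19.7% of all genes were called. Without the third hypoxia library of each line, PAX8 in sgCtl had 0.95 (adjusted p = 0.039) and was not called. In sgXIST9 it was 0.61 (SE 0.35, adjusted p = 0.15), against 23.3% of all genes called.

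**Figure D3:**
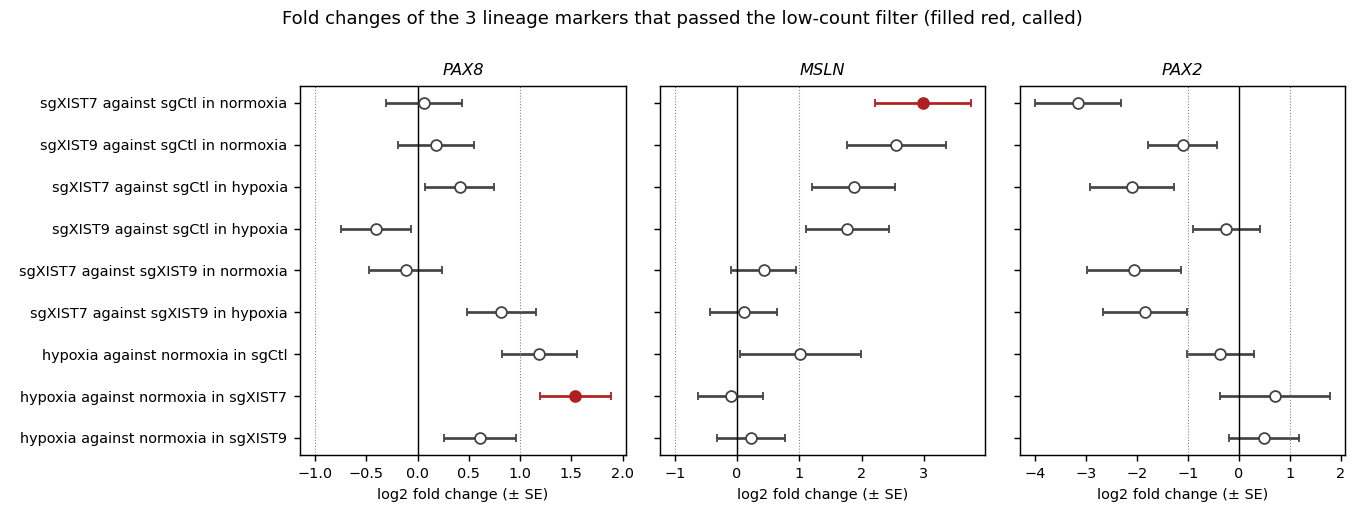
Log2 fold changes (x axis, error bars 1 SE) of PAX8, MSLN and PAX2, the 3 lineage markers that passed the low-count filter, in 9 comparisons (y axis), with filled red points for calls and dotted lines at -1 and 1. The calls are MSLN in sgXIST7 against sgCtl in normoxia (2.99) and PAX8 in hypoxia against normoxia in sgXIST7 (1.54).

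The hypoxia change of PAX8 was not shown to differ between lines. The interaction was 0.35 (SE 0.50, adjusted p = 0.69) for sgXIST7 and -0.58 (SE 0.50, adjusted p = 0.54) for sgXIST9, each against sgCtl. No lineage marker was called for either interaction, against 1.52% and 1.01% of all genes, none of the 3 tested had an unadjusted p under 0.05, and DESeq2 called 0. MSLN and PAX2 were not called for hypoxia in any line. Their log2 fold changes were 1.01, -0.10 and 0.22 for MSLN and -0.36, 0.71 and 0.50 for PAX2 in sgCtl, sgXIST7 and sgXIST9.

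EMX2 and WT1 failed the low-count filter, and in the fit without a filter EMX2 was called in hypoxia in sgCtl and sgXIST7 and WT1 in no line. EMX2 in sgCtl had 42 counts against 3, a ratio of 13.4 (4.27 to 67.4), and in the fit without a filter it was called (log2 fold change 3.51, SE 0.84, adjusted p = 0.0019, where 12.7% of genes were called). That call was lost without sgCtl normoxia replicate 3 or hypoxia replicate 2 (2.88 to 4.38 over the 6 fits, adjusted p up to 0.017). In sgXIST7 the 3 normoxia libraries had no count and the 10 hypoxia counts gave an adjusted p of 0.0082, called where 17.9% of genes were, and the call was lost without any 1 of the normoxia libraries or hypoxia replicate 2 (adjusted p up to 0.077). In sgXIST9 the ratio was 4.39 (0.909 to 41.8) for 9 counts against 2, and the gene was not called (adjusted p = 0.19, 15.2% of genes called).

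For WT1 the hypoxia to normoxia count ratio was 1.83 (0.904 to 3.91) in sgCtl, 17.6 (2.71 to 741) in sgXIST7 and 6.83 (1.57 to 61.9) in sgXIST9. In the fit without a filter it was not called in any line, the nearest being sgXIST7 (3.64, adjusted p = 0.01). It was called in sgXIST7 without normoxia replicate 2 (adjusted p = 0.0091). It was also called in sgXIST7 (3.70, adjusted p = 0.002) and sgXIST9 (2.90, adjusted p = 0.0056) once the third hypoxia library of each line was left out. EMX2 stayed called there in sgCtl (3.86, adjusted p = 0.00063) and sgXIST7 (adjusted p = 0.007), as did PAX8 in sgXIST7 (1.61, adjusted p = 0.00069).

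Counted over the 10 markers in CPM, every hypoxia library was above every normoxia library for 2 in sgCtl (PAX8 and EMX2). The same held for 3 in sgXIST7 and 3 in sgXIST9 (PAX8, WT1 and EMX2). Among all genes with a count this was so for 19.3%, 23% and 25.6%. The count of the markers, 2 or 3 of 10, was thus close to the background.

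PAX8, EMX2 and WT1 each have a noncoding neighbour on the opposite strand. PAX8-AS1 had more counts than PAX8 in every library, with CPM in normoxia of 4.03, 6.42 and 5.17 in sgCtl, 4.11, 4.22 and 3.44 in sgXIST7 and 1.70, 2.55 and 2.22 in sgXIST9. In hypoxia it had 22.4, 24.1 and 32.2 in sgCtl, 12.8, 18.4 and 19.2 in sgXIST7 and 11.6, 10.9 and 9.28 in sgXIST9. The hypoxia libraries of each line were all above its normoxia libraries.

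PAX8-AS1 was up-regulated by hypoxia in every line, with log2 fold changes of 2.33 in sgCtl, 2.09 in sgXIST7 and 2.30 in sgXIST9 (adjusted p = 2.6e-07, 4e-07 and 3.3e-07). It was lower in sgXIST9 than in sgCtl in normoxia (-1.27, adjusted p = 0.00065) and in hypoxia (-1.30, adjusted p = 0.00013). In sgXIST7 it was not called (-0.40, adjusted p = 0.22 and -0.64, adjusted p = 0.017). PAX8 had no such difference from sgCtl in sgXIST9, where it was 0.18 and -0.41.

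EMX2OS, which starts within EMX2 and reads away from it on the other strand, was called in hypoxia in sgCtl (log2 fold change 3.09, SE 0.70, adjusted p = 0.0019), with counts of 17, 22 and 9 against 0, 3 and 2. That call was lost without sgCtl normoxia replicate 1 or replicate 3 (adjusted p up to 0.011). EMX2OS exceeded 3 counts only in the hypoxia libraries of sgCtl and sgXIST9. It thus passed the low-count filter through the groups in which it was highest. In sgXIST9 it had 18, 19 and 8 counts in hypoxia and none in normoxia, at least 4.67-fold higher with 3 counts per library as the floor (adjusted p = 0.00012). In sgXIST7 it stayed at 2, 0 and 1 counts in hypoxia, below sgCtl (-4.01, SE 0.76, adjusted p = 0.00072) and below sgXIST9 (-3.58, adjusted p = 0.005). The difference between the KD lines held in 2 of the 6 fits that each left out 1 library, and was lost without sgXIST7 replicate 2 or 3 or sgXIST9 replicate 1 or 2. EMX2 itself was low in both KD lines, so the pair did not have the same order of lines.

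WT1-AS was near the floor, with 6, 8 and 0 counts in sgCtl hypoxia and at most 4 in any other library. The 0 fell in the same library as the 0 of WT1. Since the setting that assigned reads to a strand is not given in the sources used here, reads in the shared bases of these pairs cannot be told apart, and those bases are at most 5.0% of a marker. The listed exons of PAX8-AS1 (chr2:113235527-113267023) lay within the span of PAX8, with 1.4% of their bases under its exons. Without strand assignment, reads from PAX8 introns could also count as PAX8-AS1, and this was not tested.

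**Figure D4:**
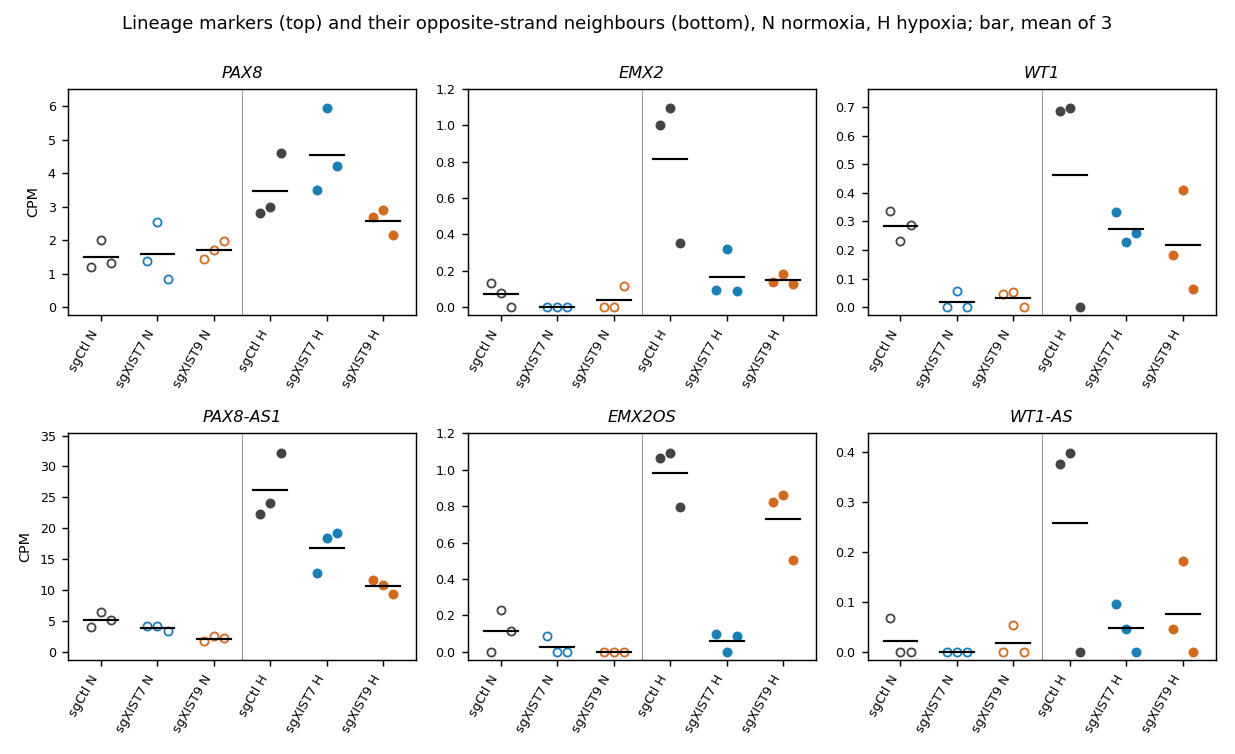
CPM (y axis, a separate scale for each gene) of PAX8, EMX2 and WT1 (top) and their opposite-strand neighbours (bottom) in each library, open points for normoxia, filled points for hypoxia, bars for the mean of 3 libraries. PAX8-AS1 rises in hypoxia from 1.70 to 6.42 CPM up to 9.28 to 32.2 CPM, and EMX2OS stays near 0 in sgXIST7.

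Other genes of the duct and of intermediate mesoderm were not absent as a group. Of 24 such genes, 11 passed the low-count filter, and MEIS2 and LHX9, a homeobox gene of the gonad, had a mean over 10 CPM across the 18 libraries. HOXA13 had a lower mean and reached 35.3 CPM in 1 library. MEIS2 had group means of 101 to 180 CPM. The other 13 of the 24 stayed under 1 CPM in every library, and 9 never exceeded 3 counts, among them HOXA9, HOXA10 and PGR.

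In normoxia sgXIST7 had 4 calls among the 11, each higher than in sgCtl (HOXA11, HOXD10, HOXD11 and LHX9). In sgXIST9 there were 2 higher (HOXA11 and ESR1) and 1 lower (WNT4). Of all tested genes, 7.76% and 7.7% were called. HOXD11 had a count in 12 of the 18 libraries, and ESR1 exceeded 3 counts in 8. Such genes passed the low-count filter through libraries in which they were high, so these numbers of calls are a description. HOXA11, which patterns the uterus, had log2 fold changes of 1.95 (SE 0.38, adjusted p = 0.0011) and 2.51 (SE 0.38, adjusted p = 8.9e-05). In hypoxia against normoxia, 4 of the 11 were higher in sgCtl, 3 in sgXIST7 and 6 in sgXIST9, and HOXA11 and ESR1 were lower in sgXIST9. The shares of all genes called for hypoxia were 19.7%, 27.3% and 23.3%, so the 3 of 11 in sgXIST7 were at the background.

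In normoxia 7.76% of all tested genes were called in sgXIST7 and 7.7% in sgXIST9, each against sgCtl. Among the 6 tested serous carcinoma genes, S100A1, a calcium-binding protein, was the only one called in normoxia. It was higher in sgXIST7 (log2 fold change 1.72, SE 0.19, adjusted p = 3.4e-06) and in sgXIST9 (3.14, SE 0.19, adjusted p = 2.6e-09). MUC1, a membrane mucin, was higher in hypoxia in sgXIST7 (2.92, adjusted p = 0.00013) and sgXIST9 (2.58, adjusted p = 0.00092). In sgCtl it had a log2 fold change of 1.76 (adjusted p = 0.023), not called, and the interactions were not called either (adjusted p = 0.37 and 0.62). KRT8 was the 1 call of 3 tested epithelial genes in each KD line in normoxia (1.92, adjusted p = 1.5e-06 and 1.89, adjusted p = 1.5e-06). Of the 6 fibroblast genes tested, the collagen chains COL1A1 and COL1A2 were higher in both, COL1A1 by 2.30 (adjusted p = 0.0017) and 2.0 (adjusted p = 0.0057), and COL1A2 by 8.37 (adjusted p = 2.6e-08) and 7.39 (adjusted p = 9.6e-08). COL1A2 had a mean of 0.275 CPM in sgCtl against 96.7 and 49.2 CPM in sgXIST7 and sgXIST9. POSTN, a matrix protein, was lower in sgXIST9 (-2.48, adjusted p = 0.007) and had a log2 fold change of -2.15 (adjusted p = 0.013) in sgXIST7. DCN, a proteoglycan, had -3.46 (adjusted p = 0.021) and -3.36 (adjusted p = 0.027), so the tested members did not share a direction. Summed over the 9 fibroblast genes in normoxia, the level was 944 to 988 CPM in sgCtl, 1129 to 1204 in sgXIST7 and 654 to 716 in sgXIST9, most of it COL3A1 (mean 807 CPM over the 18 libraries).

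Paralogs of the markers were also low. Of the 9 genes in the table, 7 stayed under 1 CPM in every library. PRDM16, the paralog of MECOM, was higher in both KD lines in normoxia (2.57, SE 0.34, adjusted p = 2.6e-05 and 3.29, SE 0.34, adjusted p = 1.7e-06). SOX18, a relative of SOX17 known in endothelium, was lower in hypoxia in sgCtl (-1.98), sgXIST7 (-1.85) and sgXIST9 (-1.24). SOX7 was also called lower in hypoxia in sgCtl and sgXIST7, and PRDM16 in sgXIST7 and sgXIST9. These were the 3 paralogs tested, and 19.7%, 27.3% and 23.3% of all tested genes were called for hypoxia in sgCtl, sgXIST7 and sgXIST9.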

How the data were processed

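Per the labels and the study's methods, total RNA was extracted with Trizol from OVCAR3-KRAB lines, libraries were prepared with the TruSeq Stranded Total RNA kit after ribosomal RNA depletion and sequenced paired-end, and reads were trimmed with Trimmomatic, checked with FastQC, aligned to hg38 with HISAT2 and counted with featureCounts. The values are the raw counts per gene that the authors deposited. The submitters' processing notes also name DESeq2. Versions, the annotation release and the strand setting are not given in the sources used here. Coordinates come from the exons in the deposited table, and promoter windows from RefSeq on GRCh38.p14.

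Of the listed rows, 28277 genes were kept and 2 lines without a usable gene position were left out. edgeR 4.0.16 (R 4.3.3, limma 3.58.1) was fitted once to 6 groups and 18 libraries: TMM factors, filterByExpr (minimum count 10, total 15), robust quasi-likelihood dispersions, prior count 0.125, 11 contrasts. Adjusted p-values are Benjamini-Hochberg over all 14938 genes. Genes under the filter were compared by exact tests of counts (95% intervals, counting error only) and by a fit without the filter. CPM is per 1000000 counts of the TMM-scaled library over the tested genes. The code was tested on simulated data.

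Alternatives were 2 other normalizations, 2 other filters, DESeq2 1.42.0, an adjusted p under 0.05, a fit of only the groups compared, a replicate block and leaving out each library. Total counts of 11794375 to 24906936 make 3 counts equal 0.130 to 0.266 CPM. The 10 members and the marker lists were chosen with earlier results of these data known, and some genes of 1 list are not reported here. From each list the text names up to 4 genes called the same way in both KD lines in normoxia, by largest mean fold change, and genes needed for counts of 5 or fewer. MUC1, SOX18, MEIS2, DCN, POSTN and the genes named for their level or absence were chosen after their values were seen.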

Additional observations from a re-analysis of the deposited data

Results flagged for a closer look

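S100A1, among the serous carcinoma genes, was the gene whose change in hypoxia differed between lines by a tested interaction. Its mean fell in sgCtl from 6.31 CPM in normoxia to 2.62 CPM in hypoxia (log2 fold change -1.28), whereas it went from 20.8 to 37.4 CPM in sgXIST7 and from 55.6 to 83.0 CPM in sgXIST9. The interaction, edgeR's quasi-likelihood test, was 2.12 (SE 0.28, adjusted p = 0.00041) for sgXIST7 against sgCtl and 1.85 (SE 0.28, adjusted p = 0.0014) for sgXIST9 against sgCtl. Both comparisons share the sgCtl libraries. PAX8, MSLN and PAX2, the lineage markers tested for it, were not called.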

How the results depend on the processing

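Counts of lineage markers called moved with the processing. In sgXIST7 against sgCtl in normoxia the count was 1 as reported, 2 with an adjusted p under 0.05, without a filter and with the replicate block, and 0 with a mean CPM of at least 1 or with only the groups compared. For hypoxia in sgCtl it was 0 as reported, 1 with an adjusted p under 0.05, without a filter, with a mean CPM of at least 1 and with the replicate block, and 2 with DESeq2. For hypoxia in sgXIST7 it was 1, and 2 without a filter and with DESeq2. With an adjusted p under 0.05 it was 1 in sgXIST9 in normoxia and 1 in sgXIST7 in hypoxia, each against sgCtl. Without hypoxia library 3 of each line, a setting chosen after seeing the data, it was 1 in sgXIST9 against sgCtl in hypoxia, and 1, 3 and 1 for hypoxia in sgCtl, sgXIST7 and sgXIST9.

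Leaving out 1 library at a time (chosen after seeing the data for WT1 and EMX2), the counts ran from 0 to 1 in sgXIST7 against sgCtl in normoxia, sgXIST7 and sgXIST9 against sgCtl in hypoxia and hypoxia in sgCtl, and from 1 to 2 for hypoxia in sgXIST7. The libraries that moved these counts were sgCtl normoxia 2 and 3 and sgXIST7 normoxia 1 and 3, sgCtl hypoxia 2 and 3, sgCtl normoxia 1 and 2 with sgCtl hypoxia 3, and sgXIST7 hypoxia 1. Directions turned only for values under the threshold. For PAX8 the range was -0.44 to 0.38 in sgXIST7 against sgCtl and -0.61 to 0.20 in sgXIST7 against sgXIST9 in normoxia. For PAX2 it was -0.54 to 0.35 in sgXIST9 against sgCtl in hypoxia and -0.11 to 2 for hypoxia in sgXIST7. For MSLN it was -0.77 to 1.97 and -0.33 to 0.25 for hypoxia in sgCtl and sgXIST7, and -0.13 to 0.44 in sgXIST7 against sgXIST9 in hypoxia, where leaving out hypoxia library 3 of each line gave -0.04. For EMX2 without a filter it was -3.43 to 0.05 in sgXIST9 against sgCtl in normoxia. For EMX2OS hypoxia in sgXIST7 it was -0.01 to 3.17. The cause was not tested.

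Same-numbered libraries of different groups correlated at -0.111 to 0.593 (median 0.0733), over 0.1 in 18 of 45 pairs. The median was -0.0336 for pairs with different numbers. These values do not settle whether the number marks a pairing, and the fit as reported left the block out. With the replicate block PAX2 was also called in sgXIST7 in normoxia (-3.27, adjusted p = 0.0064) and PAX8 in hypoxia in sgCtl (1.21, adjusted p = 0.0058), and EMX2 in the fit without a filter lost its call in hypoxia in sgXIST7 (adjusted p = 0.013). Over all genes, the interaction calls for sgXIST7 and sgXIST9 numbered 227 and 151 as reported, 706 and 468 with an adjusted p under 0.05, 550 and 370 with DESeq2, 79 and 90 with only the groups compared, and 1288 and 822 without hypoxia library 3, and 371 for sgXIST7 with the block. With only the groups compared, calls in hypoxia went from 2093 to 1113 in sgXIST7 against sgCtl, from 1423 to 641 in sgXIST9 against sgCtl, and from 666 to 323 in sgXIST7 against sgXIST9. Depth limits every statement on the genes at the floor to 3 counts a library.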
